A study of Mus musculus with 8 samples.

Results

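The genes described here are 42 genes of glycolysis and of the response to low oxygen, measured in mouse mammary tumours. They were listed by name, as enzymes, transporters, oxygen sensors and known targets, by a rule that uses no measured value. The list was drawn up with earlier results of these data known. A probe was taken for a gene where its RefSeq accession led to the gene's symbol or a synonym. All 42 genes had a probe on the array, with 70 probes in all, and each of the 42 was tested among 34543 items, of which 16377 were named genes and the rest were probes without a name. The probe used for each gene, its brightest, was well above background on all 8 arrays.

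4T1, a carcinoma line of the mouse mammary gland, formed the tumours. Its cells were first exposed in culture (24 h, multiplicity of infection 50) either to an empty adenovirus (control) or to an adenovirus carrying PRH, the homeobox transcription factor whose mouse gene is Hhex. They were placed into fat pad number 3 of female BALB/c mice aged 6 to 8 weeks, and tumours were taken on day 22. Each group holds 4 tumours, from mice numbered 1, 2, 3 and 5 in both, so both groups share the cell line, the viral infection and the host strain, and differ in the insert of the virus. The virus was given to the cultured cells before injection, so the host's cells in the tumour carry none of it by design. The labels call the RNA both tumour RNA and RNA of endothelial isolates, and which of these was hybridised was not settled.

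One array was hybridised per tumour, with 1 colour. Levels are log2 signals relative to the array's own 75th percentile, so that 0 is the 75th percentile of that array, and a difference is the PRH-labelled mean minus the control mean. The signal at the 75th percentile was 1003 to 1283 on control arrays and 679 to 762 on PRH-labelled arrays (exact two-sided permutation p = 0.0286, n = 4 each, the smallest this design can give). Between 64.2% and 69.8% of probes stood well above background on control arrays, and between 72.2% and 73.9% on PRH-labelled arrays. On the single slide each group filled its own column, and column and group thus cannot be told apart. Hhex itself read -0.54, -0.33, -0.69 and -0.78 in control tumours 1, 2, 3 and 5, and -1.71, -1.46, -1.79 and -1.72 in PRH-labelled tumours 1, 2, 3 and 5. Its difference was -1.09 (SE 0.149, limma adjusted p = 0.00686), lower where the label names PRH, and whether its probe reads the viral copy was not tested. The arrays are therefore called PRH-labelled and all directions given follow the label. Nothing beyond the spread among these 8 tumours enters the p-values.

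Glycolysis splits glucose into pyruvate in the cytosol, and tumour cells often run it at a high rate and export the product as lactate. When oxygen is low, the prolyl hydroxylases of the Egln family no longer mark the HIF alpha subunits for destruction through the Vhl ubiquitin ligase. The subunits Hif1a and Epas1 then pair with a partner and bind a short element in the promoters of their targets, which include many glycolytic enzymes.

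Of the 42 genes, 8 rose and 5 fell in PRH-labelled tumours at an adjusted p under 0.05 (limma, Benjamini-Hochberg over all 34543 items), and 29 were not called. The 8 were 19.0% of the 42, against 17.2% of all items and 10.6% of named genes that were called higher. The 5 were 11.9%, against 8.67% of all items and 12.9% of named genes called lower. With centring on the median in place of the 75th percentile, which moves the median difference of all items from 0.29 to -0.18, 2 were higher and 7 lower, against 8.47% and 22.0% of all items. In 15 of the 42 (35.7%) the groups did not overlap, against 31.4% of all items. The median difference was 0.09 over the 42, 0.29 over all items and -0.02 over named genes. The arrays were scaled in 5 ways: by the 75th percentile, by the median, by quantiles, by normexp background correction with quantiles, and as in the authors' own values. In these, 2 genes were called higher in every one, Slc16a1 and Hif3a (4.76% of the 42, against 5.88% of all items and 2.91% of named genes), and 4 lower in every one, Slc2a3, Egln1, Hif1a and Vhl (9.52%, against 7.75% and 11.4%). These shares lie near those of all items, so the counts are no result about the 42 as a group, and what follows is about the single genes. A further scaling used 7 spike-in probes, which are control probes named E1A for RNA added to each sample. With it, none of the 42 was called by limma, with 4 at an unadjusted p under 0.05. The matching unadjusted count over all items is not given, so the 4 are no result about the 42. Of all items, 0 were called higher and 1 lower.

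**Figure D1:**
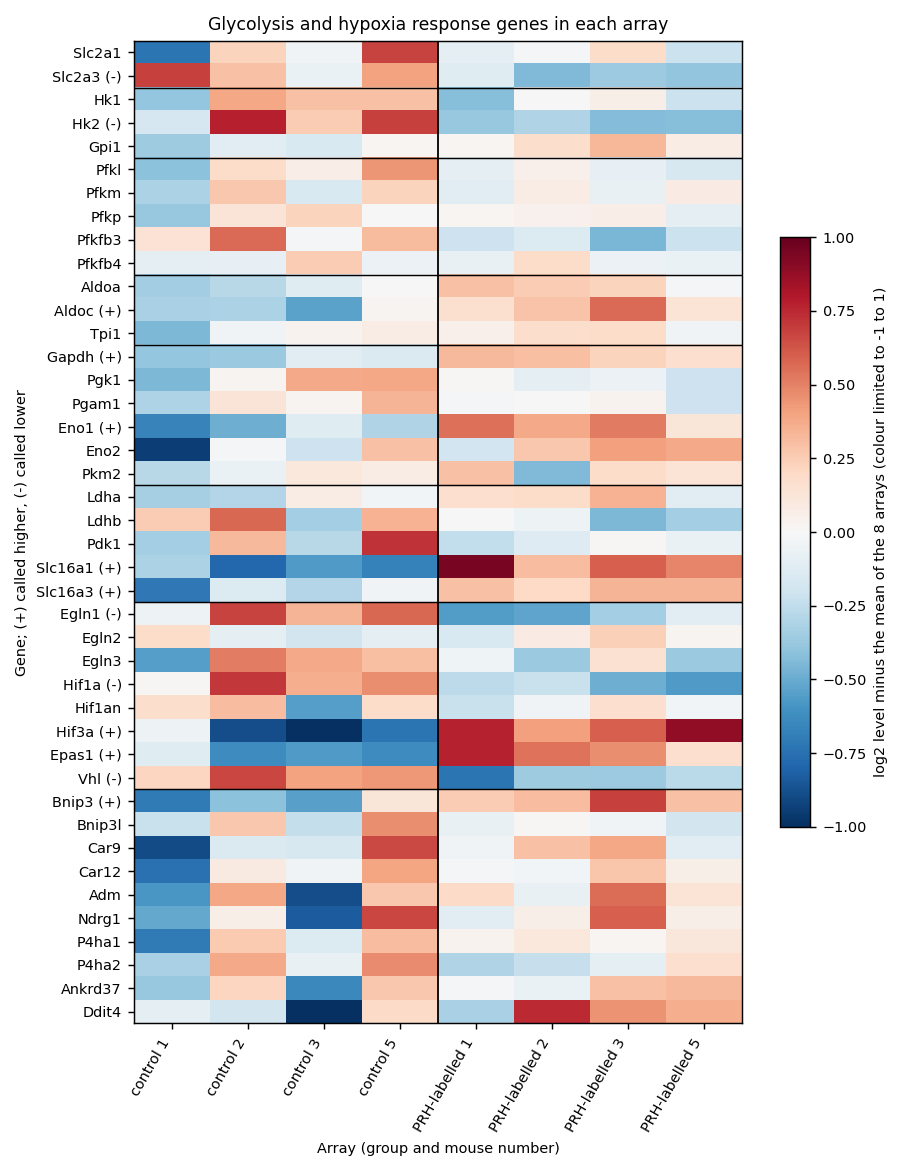
The 42 genes (rows, by role) on the 8 arrays (columns), coloured by log2 level minus the gene's mean over the 8 arrays. Slc16a1, Hif3a and Epas1 are red on all 4 PRH-labelled arrays, Vhl, Hif1a and Egln1 blue, and control 1 is blue for most other rows.

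The oxygen sensors and HIF subunits held the most calls of any role, with 2 higher and 3 lower of 8 genes, and they are shown first. Of all items 17.2% were called higher and 8.67% lower, and of named genes 10.6% and 12.9%. The same shares stand beside the counts of the other roles below. With 2 to 10 genes per role, these counts are no result about a role. The promoter of each gene below is the 250 bases before its start in the RefSeq table of build GRCm38.p6, with capitals on the core letters to which HIF binds (ACGTG or GCGTG on either strand, overlapping matches joined). The windows shown are those of the 4 called sensing and subunit genes that the table lists, of the lactate transporter Slc16a1 and of Bnip3, picked after their values were seen to show where such letters lie. Those of the other called genes are not printed.

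Hif1a is at chr12:73907617-73907866 on the plus strand, with matches at -135 and -70 from the start.
Hif1a: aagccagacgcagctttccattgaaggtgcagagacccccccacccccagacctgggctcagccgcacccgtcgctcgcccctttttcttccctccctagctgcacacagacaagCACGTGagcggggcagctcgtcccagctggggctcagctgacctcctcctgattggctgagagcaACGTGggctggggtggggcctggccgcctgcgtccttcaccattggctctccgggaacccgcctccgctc
Vhl is at chr6:113623744-113623993 on the plus strand, with 0 matches in the window.
Vhl: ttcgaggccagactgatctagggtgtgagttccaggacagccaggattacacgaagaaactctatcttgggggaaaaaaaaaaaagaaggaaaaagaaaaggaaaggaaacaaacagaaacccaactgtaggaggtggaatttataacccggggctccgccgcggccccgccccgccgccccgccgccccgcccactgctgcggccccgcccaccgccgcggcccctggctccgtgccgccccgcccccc
Egln1 is at chr8:124949255-124949504 on the minus strand, with matches at -126 and -68.
Egln1: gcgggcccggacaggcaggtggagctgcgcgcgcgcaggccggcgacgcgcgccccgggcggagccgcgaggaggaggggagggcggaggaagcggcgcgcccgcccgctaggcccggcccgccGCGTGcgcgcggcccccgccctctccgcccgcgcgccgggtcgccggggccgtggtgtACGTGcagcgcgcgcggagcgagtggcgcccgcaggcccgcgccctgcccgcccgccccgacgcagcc
Hif3a is at chr7:17062428-17062677 on the minus strand, with matches at -230 and -186.
Hif3a: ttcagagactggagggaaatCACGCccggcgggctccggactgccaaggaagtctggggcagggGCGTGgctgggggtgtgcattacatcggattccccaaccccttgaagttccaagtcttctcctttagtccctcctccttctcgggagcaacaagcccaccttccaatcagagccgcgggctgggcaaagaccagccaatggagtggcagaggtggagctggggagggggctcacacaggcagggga
Slc16a1 is at chr3:104638414-104638663 on the plus strand, with matches at -200, -149 and -134.
Slc16a1: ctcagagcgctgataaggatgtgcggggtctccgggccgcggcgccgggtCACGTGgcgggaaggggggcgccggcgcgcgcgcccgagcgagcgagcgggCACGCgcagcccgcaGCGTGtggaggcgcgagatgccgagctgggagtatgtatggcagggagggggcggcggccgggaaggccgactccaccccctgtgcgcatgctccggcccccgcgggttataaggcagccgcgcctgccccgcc
Bnip3 is at chr7:138909507-138909756 on the minus strand, with matches at -117, -108, -99 and -35.
Bnip3: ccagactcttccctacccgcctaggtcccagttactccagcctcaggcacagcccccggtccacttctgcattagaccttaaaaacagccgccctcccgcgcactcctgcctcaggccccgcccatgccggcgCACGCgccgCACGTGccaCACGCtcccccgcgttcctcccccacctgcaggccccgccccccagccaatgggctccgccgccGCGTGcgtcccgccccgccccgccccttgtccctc

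Of the 42 genes, 38 were in the RefSeq table, with 52 windows, and 41 of those windows (78.8%) held at least 1 match. The share was 38.6% of all 32851 windows, 44.0% of windows of protein-coding genes, and 56.9% of protein-coding windows whose GC content lay in the middle range of the 42. Median GC content was 61% in the windows of the 42 and 52.4% in all windows. All 10 windows of called higher genes held a match, as did 3 of 4 windows of called lower genes and 28 of 38 of genes not called (73.7%). Some genes have several windows, which can overlap. Counted by gene, a match was held by 7 of 7, 3 of 4 and 22 of 27 (81.5%). Median GC content was 65.6%, 68% and 59.2% in these windows, in the same order. Whether matches go with the calls was not tested. A match is a run of letters and not a bound site, and the genes were picked as known targets in part.

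Hif1a, the alpha subunit that drives most of the acute response to low oxygen, fell. Its level was 1.85, 2.55, 2.20 and 2.30 in control tumours 1, 2, 3 and 5 and 1.58, 1.62, 1.35 and 1.27 in PRH-labelled tumours 1, 2, 3 and 5. Every PRH-labelled tumour lay below every control tumour, with means of 1.45 ± 0.17 and 2.23 ± 0.29 (SD, n = 4 each). The difference was -0.77 (SE 0.181, 1.71-fold lower, limma adjusted p = 0.0194). It was called in each scaling, with differences between -1.24 and -0.63, and was lost without control 5 or PRH-labelled 5 (adjusted p up to 0.0571).

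Epas1, which encodes the sister subunit HIF-2 alpha and is high in endothelium, moved the other way on its brightest probe. Its level was 3.28, 2.78, 2.84 and 2.78 in the control tumours and 4.17, 3.95, 3.87 and 3.57 in the PRH-labelled tumours, in the same order of mouse numbers. The groups did not overlap, and control 1 was the highest control. The difference was 0.97 (SE 0.186, 1.96-fold, limma adjusted p = 0.0104), and it passed without each array in turn. It was lost with median centring, where the difference was 0.51. The other tested probes of Epas1 read -0.61 and -0.08, and with the mean of its probes the difference was 0.09, so the rise is that of 1 probe of 3. The endothelial list held 1 called gene of 9 tested, Kdr (higher), where 17.2% of all items were called higher. Kdr was not called in all 5 scalings. The list's summed level was 3.31 to 4.69 in control and 4.53 to 4.91 in PRH-labelled tumours. Its part in the result was not tested. In bulk RNA such as this, fewer cells of a type and less RNA per cell cannot be told apart.

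Hif3a, whose product is known to restrain the other subunits, showed the largest difference of the 42 genes at a dim probe. Its level was -2.92, -3.76, -3.87 and -3.60 in control tumours and -2.10, -2.46, -2.28 and -1.98 in PRH-labelled tumours. Each PRH-labelled tumour lay above each control tumour. The difference was 1.33 (SE 0.233, 2.52-fold, limma adjusted p = 0.00854). It passed in each scaling, where it ranged from 0.56 to 1.33, and without each array in turn. Another probe of Hif3a read 1.84 (SE 0.989), but it was above background on only 4 of 8 arrays and its groups overlapped. A further probe, above background on 1 array, was not tested. Averaged over the tested probes of Hif3a, the difference was 1.59 with a limma adjusted p of 0.0567. Items as dim as this probe read higher in PRH-labelled tumours on the whole, with a median difference of 0.63 among the items in the same of 10 equal bins of brightness.

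Vhl, the substrate-binding part of the ligase that removes HIF alpha subunits, fell. Its level was 0.94, 1.39, 1.13 and 1.15 in control tumours and -0.0047, 0.37, 0.36 and 0.45 in PRH-labelled tumours. PRH-labelled 1 was the lowest of all 8, and the groups were apart. The difference was -0.86 (SE 0.159, 1.81-fold lower, limma adjusted p = 0.00964), and it held in each scaling and without each array. Vhl has 1 tested probe.

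Egln1, the main prolyl hydroxylase that marks HIF alpha in normal oxygen, also fell. Its level was -3.79, -3.06, -3.40 and -3.17 in control tumours and -4.29, -4.27, -4.07 and -3.85 in PRH-labelled tumours. The gap was narrow, because control 1 lay near PRH-labelled 5. The difference was -0.77 (SE 0.199, 1.70-fold lower, limma adjusted p = 0.0270). It passed in each scaling, but of the fits that left out 1 array only those without control 1 or PRH-labelled 5 kept it (adjusted p up to 0.0753). Dim items read higher, with a median of 0.69 in its bin, and Egln1 went the other way.

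The remaining sensing genes were not called. Egln2, a second hydroxylase, differed by 0.10 on its brightest probe and -0.37 on its other one. Egln3, a hydroxylase that HIF induces, differed by -0.32 and 0.12, and Hif1an, the asparagine hydroxylase that blocks HIF activity, by -0.06. Hif1an lay lowest in control 3, at -1.08.

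**Figure D2:**
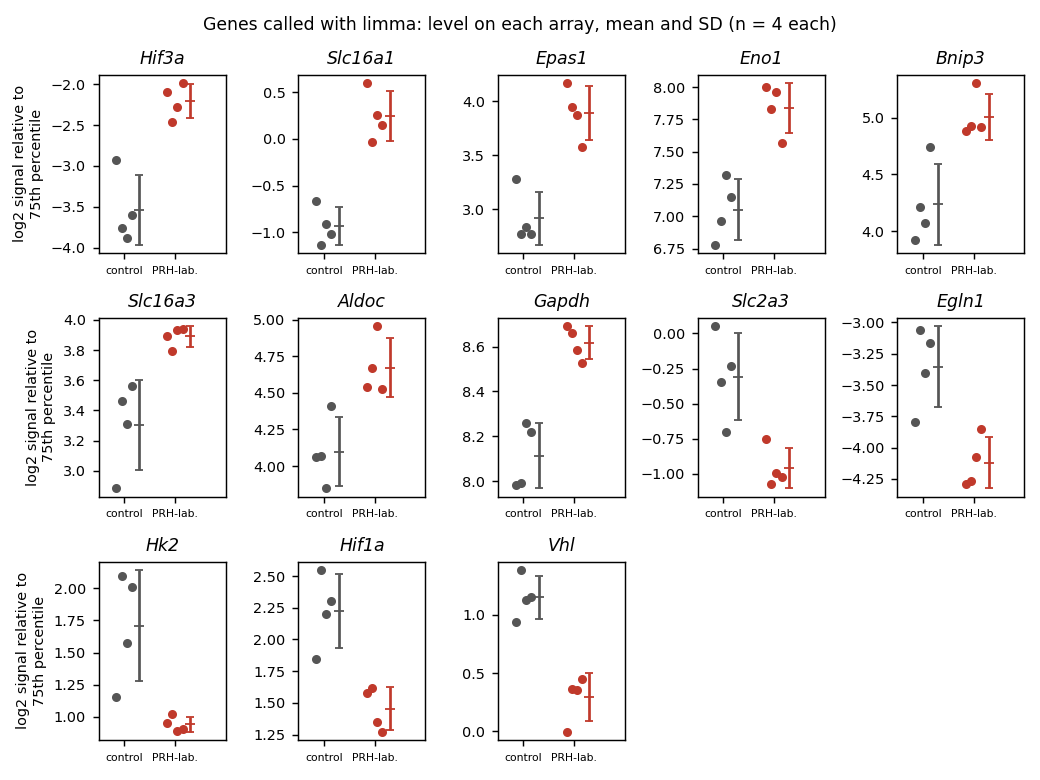
Log2 level of each of the 13 called genes, with 0 at the 75th percentile of the array, on the 4 control and 4 PRH-labelled arrays, as points, with mean and SD beside them. The groups do not overlap in any panel, and the vertical axes differ between panels.

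Lactate leaves cells through the monocarboxylate transporters, and both transporters listed rose. Slc16a1, which encodes MCT1, read -0.67, -1.13, -0.91 and -1.02 in control tumours and 0.60, -0.03, 0.26 and 0.14 in PRH-labelled tumours. Control values stayed within a narrow band below all of the others. The difference was 1.17 (SE 0.180, 2.26-fold, limma adjusted p = 0.00714), with 0.71 to 1.17 over the scalings, and it passed without each array in turn. Items of its brightness were not shifted upwards, with a median difference of -0.03.

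Slc16a3, which encodes the exporter MCT4 and is a known HIF target, read 2.88, 3.46, 3.31 and 3.56 in control and 3.89, 3.79, 3.94 and 3.94 in PRH-labelled tumours. The PRH-labelled values sat close together and above every control. The difference was 0.59 (SE 0.171, limma adjusted p = 0.0401), and its second probe read 0.54. It was lost with median centring (0.12), with the mouse number as a block (adjusted p = 0.0507), with the mean of both probes (adjusted p = 0.0653) and without any array other than control 1 or control 5 (adjusted p up to 0.0961).

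The genes that decide the fate of pyruvate were not called. Ldha, the lactate dehydrogenase subunit that favours lactate, differed by 0.29. Ldhb, the subunit of the heart form, differed by -0.42. Pdk1, a kinase that inhibits the pyruvate dehydrogenase complex, differed by -0.21. Their groups overlapped.

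Glucose enters through Slc2a1 and Slc2a3. Slc2a1, the widespread transporter GLUT1, was not called, with a difference of -0.07 and a 95% interval of -0.74 to 0.61. Control tumours spread from 3.03 to 4.44 and PRH-labelled tumours from 3.55 to 3.95. Slc2a3, the high-affinity transporter GLUT3, fell. It read 0.05, -0.34, -0.70 and -0.23 in control tumours and -0.76, -1.08, -0.99 and -1.03 in PRH-labelled tumours, with control 3 next to PRH-labelled 1. The difference was -0.66 (SE 0.183, 1.58-fold lower, limma adjusted p = 0.0352). It was called in each scaling, but among the fits without 1 array only those without control 1 or control 3 kept it (adjusted p up to 0.0897).

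Hexokinases trap glucose inside the cell as its phosphate. Hk2, the form that tumours often add, fell: it read 1.15, 2.10, 1.58 and 2.01 in control tumours and 0.95, 1.02, 0.89 and 0.90 in PRH-labelled tumours. The PRH-labelled values were nearly equal (SD 0.06), while control values were spread (SD 0.44), and control 1 was close to them. The difference was -0.77 (SE 0.220, 1.71-fold lower, limma adjusted p = 0.0379). It was lost with normexp and with the authors' values, and of the fits without 1 array only that without control 1 kept it (adjusted p up to 0.0987). Hk1, the common form, differed by -0.29 and Gpi1, the isomerase that follows, by 0.30. Gpi1 did not overlap between groups but was not called (limma adjusted p = 0.152).

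Phosphofructokinase commits glucose to glycolysis. Its subunit genes were not called. Pfkl differed by -0.14, Pfkm by -0.01 and Pfkp by 0.02. Their 95% intervals reached from -0.59 to 0.39 at the widest. A dimmer probe of Pfkp read 0.54. Pfkfb3, which makes the activator of the enzyme, read 1.49, 1.91, 1.33 and 1.65 in control tumours and 1.13, 1.21, 0.88 and 1.13 in PRH-labelled tumours. The groups were apart, with a difference of -0.51 and a limma adjusted p of 0.0557, and of 0.0397 with the mouse number as a block. Its other probe read 0.35. Pfkfb4, a HIF-induced relative, differed by -0.01.

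Aldolases split the sugar into triose phosphates, which triosephosphate isomerase interconverts. Aldoc, the brain-type aldolase, rose, with 4.06, 4.07, 3.85 and 4.41 in control and 4.54, 4.67, 4.95 and 4.53 in PRH-labelled tumours. The groups did not overlap, although control 5 came close. The difference was 0.57 (SE 0.171, 1.49-fold, limma adjusted p = 0.0431). It was lost with the mouse number as a block (adjusted p = 0.0784), with median centring (0.11) and without any array other than control 5 (adjusted p up to 0.0969). Aldoa, the muscle and tumour form, differed by 0.37 and Tpi1 by 0.19, and neither was called.

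In lower glycolysis, where ATP is made, 2 of 6 genes rose. Eno1, the common enolase, read 6.78, 6.96, 7.32 and 7.15 in control and 8.00, 7.83, 7.96 and 7.57 in PRH-labelled tumours. All PRH-labelled values were above all control values. The difference was 0.79 (SE 0.170, 1.73-fold, limma adjusted p = 0.0148), and it passed without each array in turn. It was lost with median centring, normexp and the authors' values, with differences down to 0.23.

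Gapdh, the dehydrogenase often used as a reference gene, read 7.98, 7.99, 8.26 and 8.22 in control and 8.69, 8.66, 8.58 and 8.53 in PRH-labelled tumours. On this probe the groups were apart. The difference was 0.50 (SE 0.126, 1.42-fold, limma adjusted p = 0.0239). It was lost in all 4 other scalings, with differences down to 0.04, with the mouse number as a block (adjusted p = 0.0510), and in the fits without control 2 or without any PRH-labelled array (adjusted p up to 0.0677). Its 7 tested probes read from -0.48 to 0.50, and their mean 0.12.

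Pgk1 and Pgam1, the kinase and mutase that follow, differed by -0.17 and -0.09. Eno2, the neuronal enolase, differed by 0.43, with 95% bounds of -0.22 and 1.09. Pkm2, as the array names the last kinase of the pathway, differed by 0.08. These genes were not called.

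**Figure D3:**
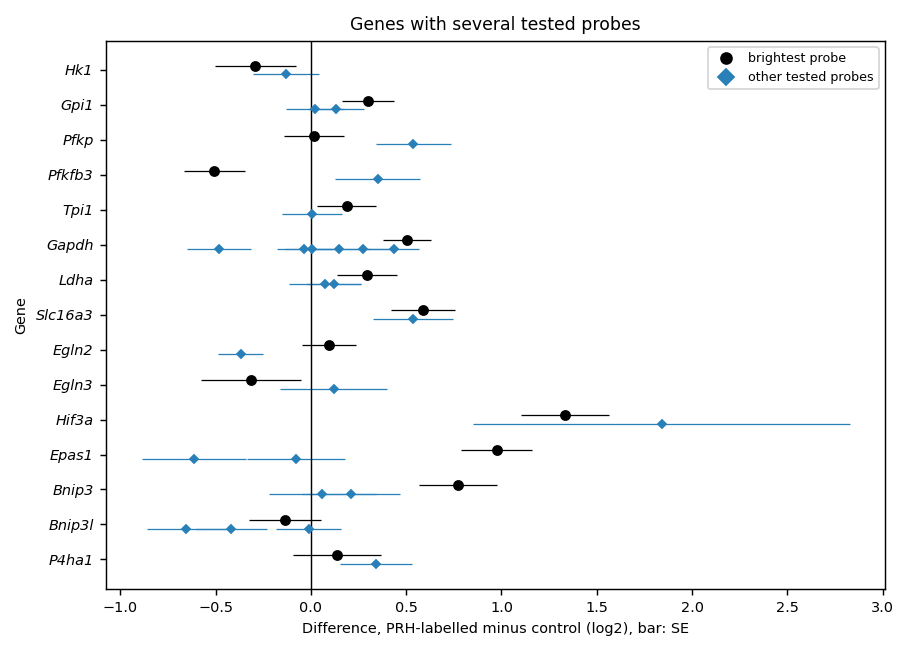
Difference (PRH-labelled minus control, log2, with SE) for every tested probe of the 15 genes with more than 1; the brightest, used throughout, is black. In Gapdh, Epas1, Pfkfb3, Egln2 and Egln3 the probes lie on both sides of 0, and in Hif3a and Slc16a3 on one side.

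Among 10 effectors of the response to low oxygen, 1 was called. Bnip3, a mitophagy receptor, read 3.92, 4.21, 4.08 and 4.74 in control and 4.88, 4.93, 5.31 and 4.92 in PRH-labelled tumours. Control 5 lay just under the lowest PRH-labelled tumour. The difference was 0.77 (SE 0.208, 1.71-fold, limma adjusted p = 0.0311). Its other probes read 0.21 and 0.06, and their mean with it 0.35 (adjusted p = 0.312). It was lost with median centring (0.31) and without any array other than control 1 or control 5 (adjusted p up to 0.0747).

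The other 9 effectors were not called. Car9, the carbonic anhydrase used as a mark of hypoxic tumour cells, read 2.49, 3.24, 3.22 and 4.04 in control and 3.35, 3.68, 3.76 and 3.27 in PRH-labelled tumours, a difference of 0.27 with bounds of -0.47 and 1.01. Ndrg1, a gene induced by low oxygen, read 4.47, 5.04, 4.15 and 5.65 in control and 4.87, 5.04, 5.58 and 5.04 in PRH-labelled tumours. For both, the PRH-labelled values lay inside the control range. Adm, a vasodilator peptide, differed by 0.40, Ddit4, a brake on mTOR, by 0.62, and Ankrd37 by 0.27. Car12, another carbonic anhydrase, differed by 0.15, Bnip3l, the relative of Bnip3, by -0.14, and the collagen prolyl hydroxylases P4ha1 and P4ha2 by 0.14 and -0.23. The other probes of Bnip3l read -0.65, -0.42 and -0.01, and that of P4ha1 read 0.34. The sign of 8 of the 10 was positive with the 75th percentile and of 2 with median centring. It was positive for 8 with quantile normalization, and for 9 with normexp and with the authors' values.

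**Figure D4:**
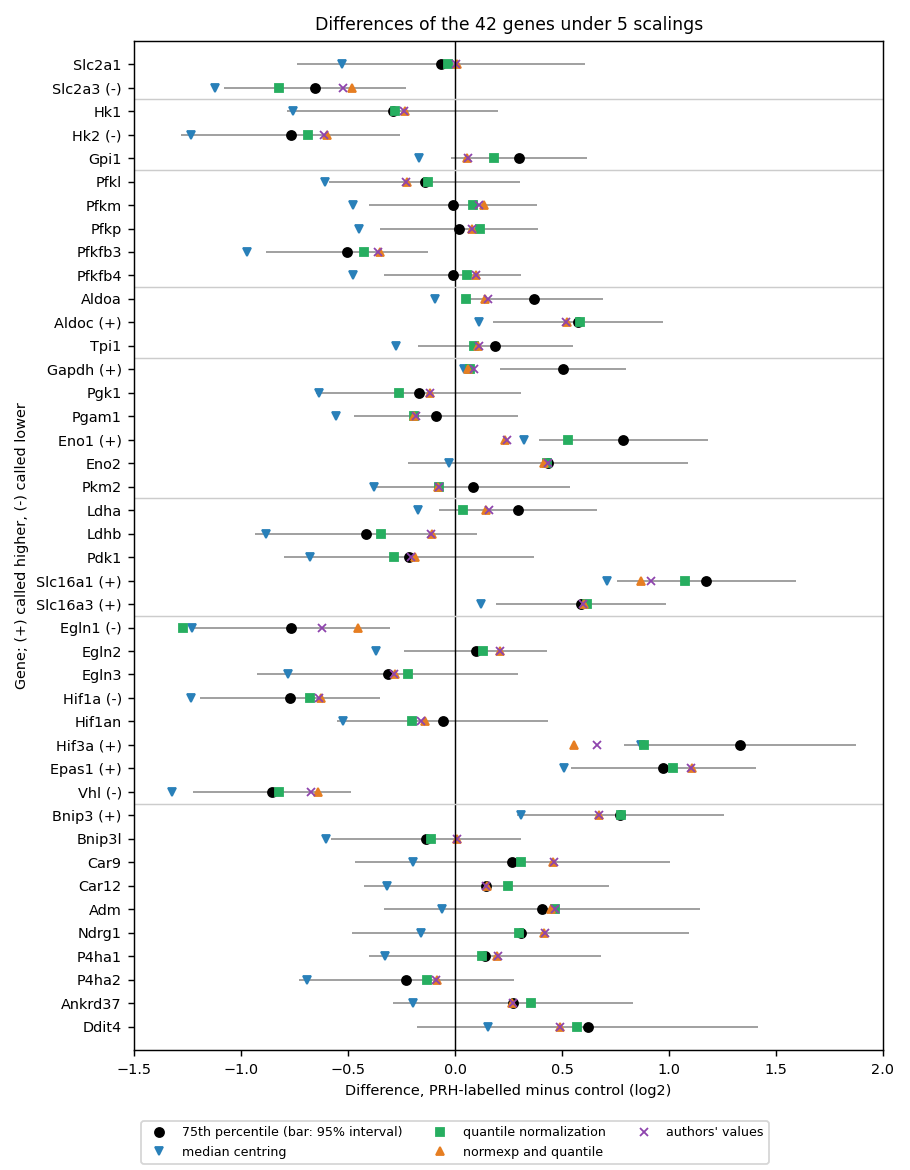
Difference of each of the 42 genes under 5 scalings, with the 95% interval of the first (grey line). The 13 called genes kept their sign in each scaling, 18 of the 29 others did not, and median centring (blue) lies lowest for most genes.

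The control tumours differed among themselves more than the PRH-labelled tumours did in most of the 42 genes. The SD was larger in control for 37 of 42 (88.1%), against 69.8% of named genes. Its median was 0.34 in control and 0.17 in PRH-labelled tumours. Named genes as a whole came close to these medians, with 0.32 for the control group and 0.19 for the PRH-labelled group. A wider spread among the controls was therefore not particular to the 42. The 10 effectors all had the larger SD in control, with medians of 0.48 and 0.20. P4ha1 had 0.47 in control and 0.05 in PRH-labelled tumours. Control 1 was the lowest control in 28 of the 42 genes, against 41.8% of named genes, and control 5 the highest in 20, against 16.4%. Of the effectors, control 5 was highest of the controls in 9 of 10 and lowest in none, while control 1 and control 3 were each lowest in 5. Without control 1 the SD was larger in control for 28 of 42, against 54.5% of named genes. No test was made of these spreads.

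Ratios within an array compare relatives without any scaling of the array. Of 15 pairs of relatives, none differed after Benjamini-Hochberg adjustment over the 15 (exact two-sided permutation, smallest possible p = 0.0286, n = 4 each). Of these pairs, 3 reached that smallest p. A pair could pass the adjustment only if most of the 15 reached that smallest p together. The outcome therefore says little about any single pair. Epas1 over Hif1a was 1.75 higher in PRH-labelled tumours (exact p = 0.0286, adjusted p = 0.143). Relative to the control mean it read 0.74, -0.47, -0.06 and -0.22 in control and 1.91, 1.64, 1.83 and 1.61 in PRH-labelled tumours, so it was higher in 4 of 4. With the mean of each gene's probes it was 0.87 and overlapped. Bnip3l over Bnip3 was -0.91, and P4ha2 over P4ha1 was -0.37 (exact p = 0.0286 and adjusted p = 0.143 for each). Slc16a3 over Slc16a1 differed by -0.59 and overlapped between groups, so the rise of one transporter over the other was not shown.

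**Figure D5:**
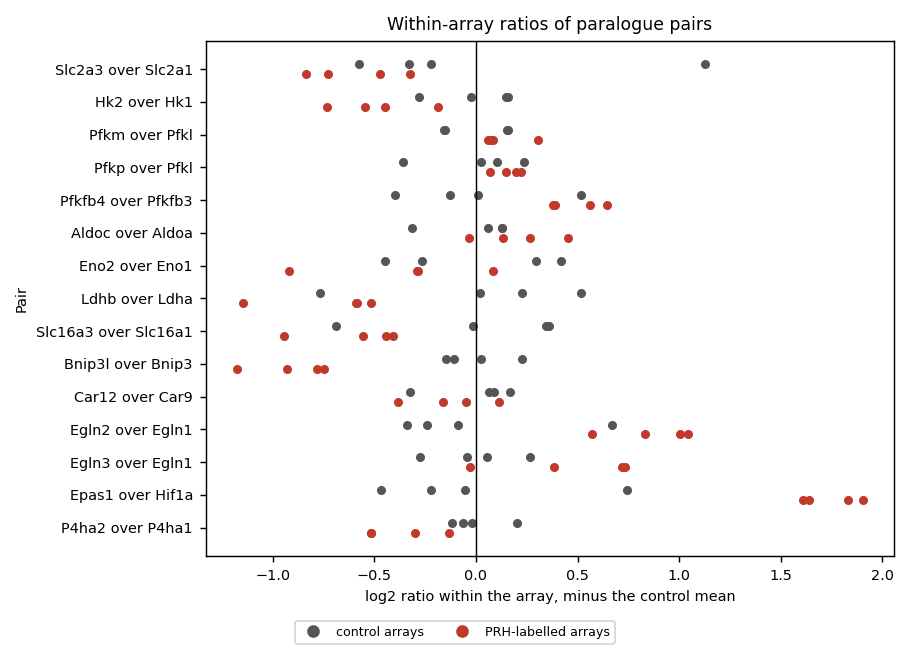
Within-array log2 ratio of 15 pairs of related genes, minus the control mean of that pair, for each control (grey) and PRH-labelled (red) array. Only Epas1 over Hif1a, Bnip3l over Bnip3 and P4ha2 over P4ha1 separate the groups.

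Further genes of the same pathways came from 2 lists. Called higher were 17.2% of all items and 10.6% of named genes, and called lower 8.67% and 12.9%, against which the counts stand. Of 42 other genes of glycolysis and pyruvate use, 39 were tested, 1 rose and 5 fell (limma). Eno3, the muscle enolase, was 0.87 higher (SE 0.206, adjusted p = 0.0202). It was 0.40 with median centring (adjusted p = 0.285), and its call was lost without control 2, control 5 or PRH-labelled 2, 3 or 5 (adjusted p up to 0.0572). Adpgk, an ADP-dependent glucokinase, was -1.12 (adjusted p = 0.00909) on its brighter probe and 0.23 on its other one, and their mean was -0.44 (adjusted p = 0.117). Pdha1, of the pyruvate dehydrogenase complex, was -0.84 (adjusted p = 0.0264), and of the fits without 1 array only that without control 1 kept it (adjusted p up to 0.0739). Pygb, a glycogen phosphorylase, was -0.53 (adjusted p = 0.0225) and was lost without control 2 or any PRH-labelled array (adjusted p up to 0.0611). Pgm2, a phosphoglucomutase, was -0.89 (adjusted p = 0.0385) with overlapping groups, and -0.89 with adjusted p = 0.0597 with the mouse number as a block. Gbe1, the glycogen branching enzyme, was -0.45 (adjusted p = 0.0415), and -0.19 and -0.21 with normexp and the authors' values (adjusted p = 0.218 and 0.237). Both were kept only by the fit without control 1 (adjusted p up to 0.0982 and 0.101). The muscle list had Tnni2 and Mylpf higher of 10, and 1 of them was called in all 5 scalings. The list's summed level was 3.34 to 4.71 in control and 4.05 to 4.77 in PRH-labelled tumours. Its part in the rise of Eno3 was not tested.

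Of 48 other genes of the response to low oxygen, 45 were tested, 2 rose and 7 fell. Ep300, a coactivator of HIF, fell by 0.84 (SE 0.145, limma adjusted p = 0.00838), with -0.48, -0.25, -0.45 and -0.26 in control and -1.02, -1.17, -1.14 and -1.48 in PRH-labelled tumours. The groups were well apart, and the call held in each scaling and without each array. Cul2, the scaffold of the Vhl ligase, was -0.77 (adjusted p = 0.0272), though another of its probes read 1.18 and the mean of its 4 probes -0.15. Of the fits without 1 array only that without control 1 kept Cul2 (adjusted p up to 0.0750).

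Tfrc, the transferrin receptor, was -0.69 (limma adjusted p = 0.0185) and was lost without control 5 (adjusted p = 0.0560). Stc1 was -0.69 (adjusted p = 0.0280), kept only without control 1, control 5 or PRH-labelled 5 (adjusted p up to 0.0712). Lox, which crosslinks collagen, was -0.76 (adjusted p = 0.0299), kept only without control 1 or PRH-labelled 5 (adjusted p up to 0.0751), with a mean of its probes of -0.51 (adjusted p = 0.0813). Both rises were lost in another scaling. Ankzf1 was 0.54 higher (adjusted p = 0.0211) and 0.08 with median centring (adjusted p = 0.757), and it was also lost without control 2 or PRH-labelled 2, 3 or 5 (adjusted p up to 0.0649). Mxi1, with overlapping groups, was 0.97 higher (adjusted p = 0.0275) and was lost in all 4 other scalings, with 0.07 under normexp. It was also lost without control 2, control 3 or PRH-labelled 1, 3 or 5 (adjusted p up to 0.0746). Siah2 was -0.72 (adjusted p = 0.0386), kept only without control 1 (adjusted p up to 0.1). P4hb was -0.62 (adjusted p = 0.0351), lost with the mouse number as a block (adjusted p = 0.0684) and kept only without control 1 or PRH-labelled 1 (adjusted p up to 0.0922). Median differences were -0.15 and -0.13 in these 2 lists, against 0.29 over all items and -0.02 over named genes.

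Some cell type markers were called, where 17.2% of all items were called higher and 8.67% lower. These counts are no result about a cell type. In all 5 scalings, 1 epithelial, 1 macrophage and 1 fibroblast gene kept the call. The neutrophil gene did not, and its groups overlapped. Of the epithelial list, Krt18 and Krt14 rose of 10, and the summed level was 8.30 to 8.68 in control and 8.76 to 9.12 in PRH-labelled tumours. Macrophage genes Mrc1 and Lyz2 fell of 9 tested, with sums of 7.54 to 8.14 and 7.42 to 7.91. Pdgfra fell of 10 fibroblast genes (8.404 to 8.93 and 8.43 to 8.74) and Retnlg of 9 neutrophil genes (3.20 to 7.23 and 5.14 to 6.599). The lists of T cells, adipocytes, erythroid cells and keratinocytes are grouped here because they held no call. That limma called 0 of their 32 tested markers follows from this grouping and is no result. Of the 32, 3 had an unadjusted limma p under 0.05, against 13438 of all 34543 items. Summed levels were 3.70 to 4.98 in control and 4.09 to 4.51 in PRH-labelled tumours for T cells, and 1.94 to 6.74 and 3.23 to 3.79 for adipocytes. They were 4.56 to 6.50 and 5.60 to 6.77 for erythroid cells, and 3.32 to 4.87 and 3.74 to 5.84 for keratinocytes. Median differences were -0.39, 0.31, 0.69 and 2.16 in these lists, in that order. The part of these cells in the results was not tested.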

How the data were processed

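RNA of 8 samples, 4 per group and named as tumours or as endothelial isolates in the labels, was tagged with 1 dye and hybridised to Agilent whole-genome arrays, 1 array per sample. The deposited files hold spot intensity values (processed signal) that Agilent Feature Extraction had background-subtracted, version 10.7.3.1 per the file headers and 9.1 per the submitters' processing notes. The authors also deposited a table of normalized intensity values on a linear scale for the same arrays, whose normalization is not given in the sources used here. Its log2 served as an alternative. From the intensity values, log2 of the processed signal minus each array's 75th percentile over non-control spots was computed. Probes well above background on at least 4 of 8 arrays were tested. Genes were named through RefSeq accessions, and each gene was represented by its brightest tested probe. The group comparison used lmFit and eBayes of limma 3.58.1 (R 4.3.3), with Benjamini-Hochberg adjustment over 34543 items and a threshold of 0.05. The fit was checked on simulated data with known shifts, where it missed many of them. A gene not called is thus not shown to be unchanged. Ratios of relatives were compared by exact permutation in scipy 1.17.1. The number of arrays limits the precision.

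The members and gene lists were chosen with earlier results of these data known. All 42 members are named in the text. Of the 2 other pathway lists, every gene called in the main fit is named with values, whether or not the other scalings kept its call. These genes and the called markers were named after their values were seen. Deviations of same-numbered tumours from their group means correlated at 0.203, 0.436, 0.666 and 0.274 for mice 1, 2, 3 and 5. All exceed 0.1, so by the rule used the numbers pair the samples. This pairing comes from the data and the shared numbers in the titles. Of 8 arrays, 6 correlated best with the array of their own number. Arrays of the same number also lay in the same row of the slide, so mouse number and slide row cannot be told apart. The main fit used group alone. Alternatives were median centring, quantile normalization, normexp (offset 50, on the median signal), the authors' values and centring on the spike-in probes. Others were the filter on dim probes, the mean of a gene's probes, the mouse number as a block and leaving out each array.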

Additional observations from a re-analysis of the deposited data

Results flagged for a closer look

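In 6 of 84 groups of 4 values (42 genes in 2 groups), 1 tumour lay far from the other 3, its gap to the nearest being a larger share of the group's range than Dixon's 95% critical value. Chance flags about 1 in 20 groups. Control 1 was low for Hk1, at 3.83 against 4.51 to 4.605 in the other controls, and high for Epas1, at 3.28 against 2.78 to 2.84. Control 3 was high for Pfkfb4, at 1.23 against 0.88 to 0.91, and low for Hif1an, at -1.08 against -0.36 to -0.23. PRH-labelled 2 was high for Pfkfb4, at 1.15 against 0.90 to 0.91. PRH-labelled 3 was high for Bnip3, at 5.31 against 4.88 to 4.93. Of these, Epas1 and Bnip3 were called, and the fit without control 1 kept both calls, while the fit without PRH-labelled 3 lost that of Bnip3.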

How the results depend on the processing

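Counts of the 42 genes called higher and lower were 8 and 5. They were 2 and 7 with median centring (8.47% and 22.0% of all items), and 0 and 0 on the spike-in probes (0 and 1 item of 34543). They were 6 and 3 without the filter on dim probes (12.4% and 4.81%), and 3 and 5 when all probes of a gene were averaged (16.5% and 8.49%). With the mouse number as a replicate block they were 5 and 6 (26.9% and 8.54%), and 10 of the 13 calls were kept. Leaving out 1 array gave 4 to 8 higher and 1 to 6 lower; the fewest higher came without control 2 or any PRH-labelled array, and 1 lower without control 5. The cause of these changes was not tested. For the other glycolysis and pyruvate genes, 6 calls became 13 with median centring, 0 on the spike-in probes and 1 to 8 without 1 array. For the other hypoxia genes, 9 became 17, 0 and 2 to 15 in the same settings. The median difference of the 42, 0.09, was -0.38 with median centring. No pair of relatives passed with quantile normalization, normexp, the authors' values or averaged probes (exact permutation). There too a pair could pass only if most pairs reached the smallest p together. Without 1 array the smallest possible exact permutation p is 0.0571, so those 8 fits could pass none and say nothing about stability.

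The 13 called genes kept their sign in every alternative. Uncalled genes that changed sign, none of them called on either side, were these. With median centring, Gpi1 read -0.17, Pfkp -0.45, Aldoa -0.096, Tpi1 -0.28, Eno2 -0.030, Pkm2 -0.38, Ldha -0.17, Egln2 -0.37, Car9 -0.20, Car12 -0.32, Adm -0.061, Ndrg1 -0.16, P4ha1 -0.33 and Ankrd37 -0.20. With quantile normalization, Pfkm read 0.083, Pfkfb4 0.057 and Pkm2 -0.074. With normexp, Slc2a1 read 0.0099, Pfkm 0.14, Pfkfb4 0.098, Pkm2 -0.080 and Bnip3l 0.0081. With the authors' values, Slc2a1 read 0.0049, Pfkm 0.11, Pfkfb4 0.099, Pkm2 -0.078 and Bnip3l 0.0075. On the spike-in probes, Pfkp read -0.11, Pkm2 -0.045 and Egln2 -0.033, and with the mean of probes Egln2 read -0.14. Without 1 array, the range was -0.078 to 0.30 for Car12, -0.25 to 0.033 for Hif1an, -0.076 to 0.26 for P4ha1, -0.075 to 0.071 for Pfkfb4, -0.12 to 0.078 for Pfkm, -0.11 to 0.093 for Pfkp, -0.21 to 0.0064 for Pgam1, -0.000205 to 0.25 for Pkm2 and -0.32 to 0.15 for Slc2a1.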
